A study of Mus musculus with 6 samples.

Results

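The interferon response genes described here are 49 genes that interferon is known to induce, or that carry its signal, named by symbol. Their Ensembl identifiers were taken from GENCODE M21, and 38 of the 49 could be placed on a row of the expression table, which has 22700 rows. Mucosa from the middle of the small intestine of C57BL/6 mice was measured by RNA-seq. In 3 alk-SMase knockout mice (KO, libraries K79S, K82S and K86S) exon 2 of Enpp7, the gene of intestinal alkaline sphingomyelinase, had been removed with Cre and loxP, and the 3 controls were wild-type mice (WT, libraries W83S, W89S and W90S). Each library came from 1 mouse. The labels give neither the age nor the sex of the mice, and the Cre driver is not given in the sources used here. The values are FPKM, fragments scaled to transcript length and to the mapped reads of the library, so levels may be compared between genes. Values are listed throughout in the order K79S, K82S and K86S for KO and W83S, W89S and W90S for WT.

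Interferons are secreted proteins with which cells warn each other of viruses and other intracellular microbes. Type I and type III interferons (interferon-alpha, -beta and -lambda) act through the complex ISGF3, which holds STAT2 and IRF9 and binds the interferon-stimulated response element (ISRE), while type II interferon (interferon-gamma), made mainly by T cells and NK cells, acts through the gamma-activated site (GAS). In the small intestine the epithelium answers mainly to type III and type II interferon, and the genes it switches on restrict viruses, attack the vacuoles of intracellular microbes and break down tryptophan. The members were divided by this knowledge into 17 genes known mainly as targets of interferon-gamma (IFN-gamma type), 30 genes known mainly as targets of ISGF3 (ISGF3 type) and 2 others, Stat3 and Irf2. Many of them answer to both kinds of interferon, so the division is a working one.

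In the deposited table the gene identifiers stood beside the values of other genes, and each member was placed by its rank with fixed offsets between the ranks of identifiers and rows. FPKM of a gene with a single annotated transcript is printed with at most 6 decimals. On the restored rows this held for 99.7% of 3649 identifiers with 1 transcript and for 5.80% of 8748 identifiers with several, against 33.9% and 34.3% on the rows beside which the identifiers stand in the table. For the members it held for 5 of 5 with a single transcript and for 1 of 33 with several. Of 7 placed genes of chromosome Y, Ddx3y and Eif2s3y were at 0.0279 and 0 FPKM in K79S and at 2.93 to 4.01 and 5.69 to 8.16 FPKM in the other libraries, and Gm29650 was also at 0 in K79S. The other 4 (Gm20775, Gapdh-ps15, Gm47283 and Gm4017) were at 2.17 to 19.7 FPKM there. By Ddx3y and Eif2s3y, K79S reads as a female mouse and the other libraries, with all WT libraries among them, as males. Sex was not in the model, and its part in the values of the members was not tested. The rule covers ranks down to 0.954 FPKM in W83S. The identifiers of 11 members lie past that rank and were not analysed here, namely Cxcl9, Cxcl10, Gbp4, Gbp6, Gbp7, Gbp8, Gbp9, Iigp1, Ifit2, Oas2 and Ifi44. Members with little expression in W83S, which is a WT library, are therefore missing from all counts below.

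Enpp7 itself had 605, 129 and 670 FPKM in the KO libraries and 406, 667 and 495 FPKM in the WT libraries, and whole-gene FPKM does not show whether exon 2 is present. Summed FPKM per library lay between 393152 and 495362, with 20061 to 21679 rows above 0, and FPKM does not give the number of reads behind a value. W83S stood apart by gastric transcripts, with 41019 FPKM over 7 gastric marker genes beside 0 to 5.72 FPKM in the other libraries. The gastric genes were led by Tff1 at 15727 and Pgc at 15082 FPKM. In W83S 3 pancreatic acinar genes summed to 2323 FPKM, nearly all of it from Pla2g1b at 2309 FPKM, while Cela1 was at 12.4 and Ctrb1 at 2.11 FPKM. K82S had the lowest sum over 10 enterocyte genes (26013 FPKM against 31859 to 39271, led by Apoa1 and Fabp2) and the highest over 5 B cell and plasma cell genes (241 FPKM against 68.3 to 133, led by Jchain and Cd79a). The label of intestinal mucosa was met by 6 epithelial genes, led by Krt8 and Epcam, which summed to 4178 to 6938 FPKM, and by the enterocyte genes in every library. Some members with a log2 fold change above 0.2 or below -0.2 moved by over 1.5 times without W83S, K82S or W90S. For these the value without that library is given beside it.

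Of the 38 placed interferon response genes, 33 had a log2 fold change of KO against WT above 0, with a median of 0.31 over the 38, but no member passed the threshold. Of 13089 rows kept by the filter on low values, 1 (0.00764%) passed, at an adjusted p-value under 0.05 (limma on log2(FPKM + 1), Benjamini-Hochberg) and a fold change above 1.5 or below 0.667. That row was lower in KO mice and is no member. All 38 placed members passed the filter, with mean levels from 1.65 FPKM (Gbp3) to 58.2 FPKM (Ifi35). Their log2 fold changes of KO against WT ranged from -0.20 (Bst2) to 1.41 (Gbp2), and the median over all tested rows was -0.06. Beside the 33 of 38 members above 0, 42.3% of all tested rows were above 0. The limma p without adjustment was under 0.05 with a higher level in KO for 9 members, against 2.87% of all tested rows, and the adjusted p-value of these 9 members was 0.393 (limma, Benjamini-Hochberg). In 8 members, Gbp2, Ido1, Irgm2, Igtp, Dtx3l, Parp12, Ifih1 and Stat3, the KO libraries all lay above the WT libraries, as in 5.90% of all tested rows. No member had its KO libraries all below the WT libraries, as in 11.3% of all tested rows. In numbers, 772 tested rows had all KO libraries above and 1483 had them below. After scaling to an equal upper quartile these were 1242 and 1285 rows, and then 11 members had all KO libraries above and none below. With 3 libraries against 3, the exact two-sided permutation test gave its smallest possible p of 0.1 for each of the 8 genes without overlap at the deposited scale. That value follows from the lack of overlap by which the 8 were picked, and it adds nothing to it.

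The 38 members did not follow a single pattern over the 6 mice. By library, 12 were highest in K82S, 10 in K79S and 3 in K86S, and 13 were highest in the WT library W90S. None was highest in W83S or W89S. The lowest library was W89S for 20 members and W83S for 11. Over all tested rows the highest library was K82S for 22.1%, W90S for 20.2%, W89S for 17.7%, K79S for 15.6%, K86S for 12.5% and W83S for 11.9%. Without W90S, 30 of the 38 members had both remaining WT libraries below the 3 KO libraries, as did 9.56% of the 12848 rows then tested, and the median log2 fold change was 0.48. Since 13 members were highest in W90S, leaving out this WT library was bound to favour that count. Without K82S, 10 members had no overlap, against 11.9% of 12764 rows, and none passed the threshold. Of all rows 9.28% then passed, but 0.400% passed with a higher level in KO. The lowest adjusted p-value of a member was then 0.0523, for Gbp2 (limma, Benjamini-Hochberg). Without W83S, 8 members had no overlap, against 7.75% of 12894 rows, and the median was 0.24. Without K79S, which reads as the only female, 9 members had all KO libraries above, as had 1144 of 12928 rows, and the median was 0.245.

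**Figure D1:**
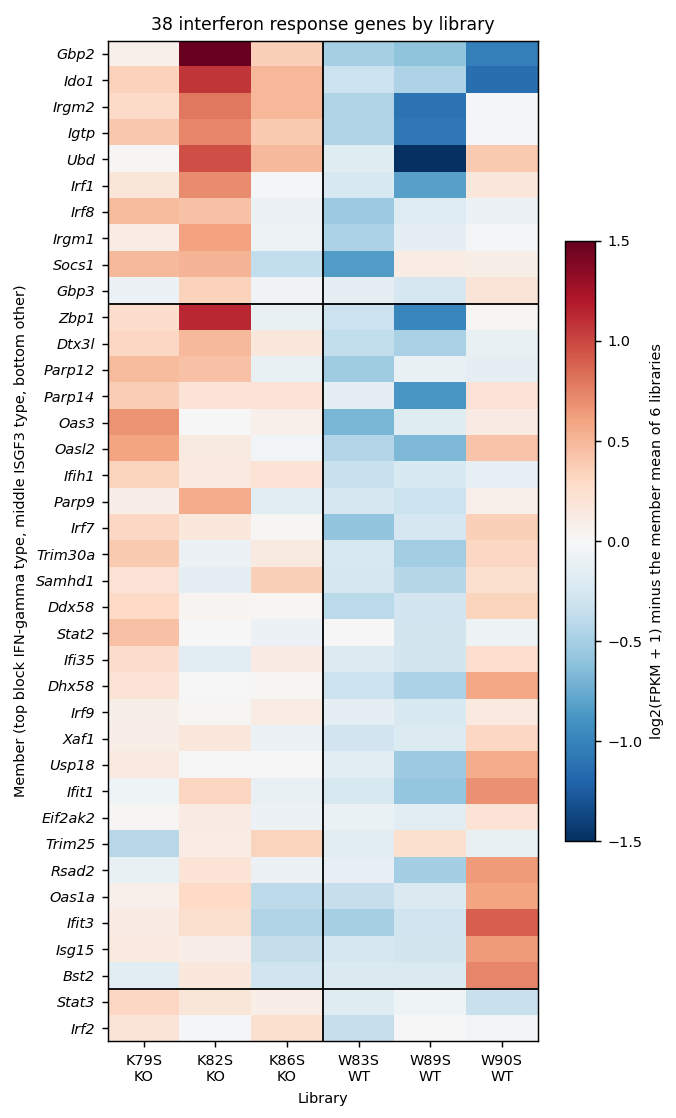
Each cell is the log2(FPKM + 1) of 1 member in 1 library minus the mean of that member over the 6 libraries, with KO libraries on the left, WT libraries on the right and members sorted by type and fold change. The top block, of the IFN-gamma type, is reddest in K82S, where 9 of its 10 members were highest, and the lower part of the ISGF3 block is reddest in W90S, where 13 of its 26 members were highest.

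The median log2 fold change was higher in the IFN-gamma type than in the ISGF3 type. All of its 10 placed members had a log2 fold change above 0, with a median of 0.78, and 4 of the 10 (Gbp2, Ido1, Irgm2 and Igtp) had no overlap between KO and WT libraries, beside the 5.90% of all tested rows with all KO libraries above. Their summed level was 180, 274 and 179 FPKM in the KO libraries and 117, 85.4 and 145 FPKM in the WT libraries, so that each KO library lay above each WT library. The 26 placed members of the ISGF3 type had a median of 0.19, with 21 above 0 and 3 (Dtx3l, Parp12 and Ifih1) without overlap. Without W90S its median was 0.46, and 20 of the 26 had no overlap, while the IFN-gamma type then had a median of 0.92 and 9 of 10 without overlap (9.56% of all rows). W90S was the highest library of 13 of the 26, so leaving out this WT library was bound to favour KO in the ISGF3 type. The summed level of the ISGF3 type was 476, 470 and 399 FPKM in the KO libraries and 326, 330 and 520 FPKM in the WT libraries, where W90S was higher than each KO library. K82S was the highest library of 9 members of the IFN-gamma type. Without K82S the medians were 0.60 in the IFN-gamma type and 0.23 in the ISGF3 type. In each type 4 members then had all KO libraries above, as had 11.9% of all rows. Only 10 of the 17 genes of the IFN-gamma type were placed, against 26 of the 30 of the ISGF3 type. Whether the types differ was not tested, since the members were divided with earlier results known.

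**Figure D2:**
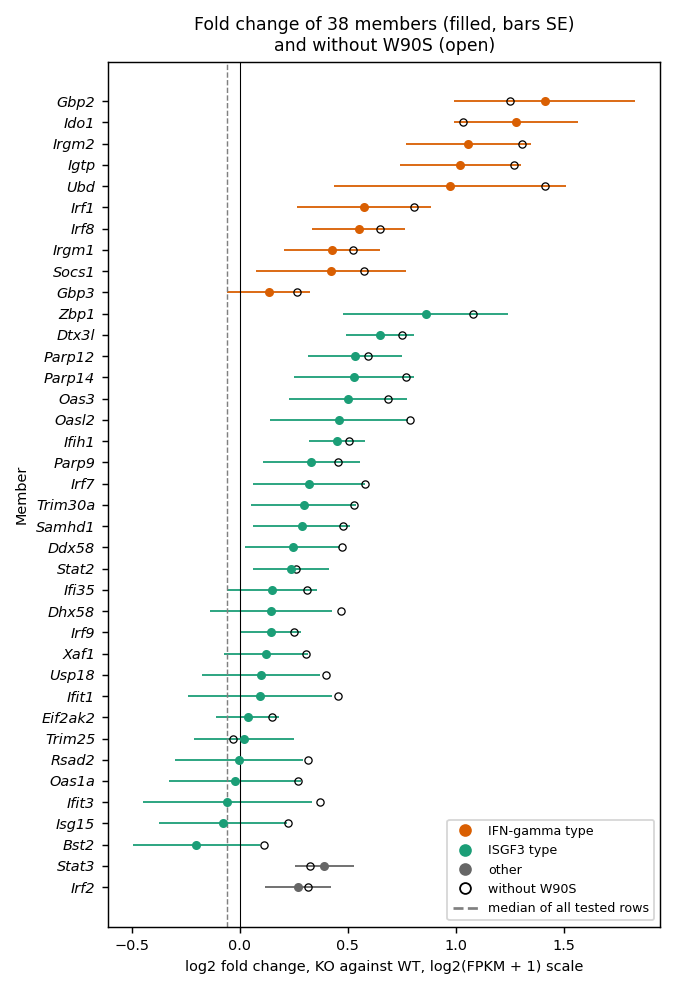
The difference of mean log2(FPKM + 1), KO minus WT, is plotted as log2 fold change for each of the 38 placed members, coloured by type, with bars of 1 SE, and open circles give the value without the WT library W90S. The 10 members of the IFN-gamma type all lie above 0, 5 members of the ISGF3 type lie below 0, and the dashed line marks the median of all tested rows at -0.06.

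Transcription factors carry the interferon signal to the genes. Irf1, an early target of interferon-gamma that drives later targets, was the most abundant, with 50.4, 73.1 and 43.5 FPKM in the KO libraries and 37.8, 24.8 and 50.1 FPKM in the WT libraries. W90S overlapped with the KO libraries, and the log2 fold change was 0.57 ± 0.31 (SE, n = 3 per genotype, as for all fold changes that follow), and 0.36 without K82S. Irf7, which amplifies type I interferon, had 35.8, 32.0 and 28.9 FPKM against 18.7, 23.9 and 37.0 FPKM. Its highest value was in W90S, and the log2 fold change was 0.32 ± 0.26, or 0.11 without W83S and 0.58 without W90S. Irf8, a factor of myeloid and B cells that interferon-gamma also induces, had 24.0, 23.5 and 15.9 FPKM against 11.3, 14.7 and 16.0 FPKM. K86S lay just below W90S, so the groups overlapped, although the p without adjustment was 0.0394 (limma, adjusted p = 0.393 after Benjamini-Hochberg) with a log2 fold change of 0.55 ± 0.21. Stat3, which carries the signal of interleukin-6, interleukin-10 and interleukin-22 and can also be used by interferon receptors, had 16.1, 14.7 and 13.8 FPKM in KO and 11.2, 12.2 and 9.97 FPKM in WT mice. Each KO library lay above each WT library, at a log2 fold change of 0.39 ± 0.14. Stat2 and Irf9 of ISGF3 overlapped between the groups. The log2 fold change was 0.24 ± 0.17 for Stat2, or 0.08 without K79S, and 0.14 ± 0.14 for Irf9. Irf2, which competes with Irf1 for the same sites, was at 0.27 ± 0.15, or 0.16 without W83S.

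The guanylate-binding proteins and the immunity-related GTPases (IRGs) coat and disrupt vacuoles that hold intracellular bacteria and parasites. Gbp2 had the largest log2 fold change of all members, 1.41 ± 0.42, and the highest ratio of mean levels, 4.13. It was at 3.60, 13.1 and 4.63 FPKM in the KO libraries and 2.11, 1.89 and 1.15 FPKM in the WT libraries. K82S was far above the other KO libraries, and without it the log2 fold change was 0.92. Gbp3 had 1.46, 2.32 and 1.52 FPKM and 1.37, 1.20 and 1.99 FPKM, with overlapping groups and a log2 fold change of 0.14 ± 0.19, which was -0.004 without K82S. Of the IRGs, Igtp (Irgm3) was at 22.7, 28.6 and 22.4 FPKM in KO and 12.1, 7.49 and 16.7 FPKM in WT mice, a mean of 24.6 ± 3.49 against 12.1 ± 4.58 FPKM (SD, n = 3), and a log2 fold change of 1.02 ± 0.28. Irgm2, a regulator of the other IRGs, followed at 7.37, 10.9 and 8.67 FPKM and 4.02, 2.19 and 5.70 FPKM, with a log2 fold change of 1.06 ± 0.29. Both genes were highest in K82S and lowest in W89S, and neither overlapped between the groups. Irgm1, which marks host membranes against attack by the effector IRGs, had 2.26, 3.56 and 1.85 FPKM and 1.17, 1.71 and 1.96 FPKM, with overlap of K86S and W90S and a log2 fold change of 0.43 ± 0.22, which was 0.23 without K82S. In the annotation of mm10 Igtp (chr11:58199556-58207591) and Irgm2 (chr11:58199618-58222782) overlap on the plus strand, and the genes of both families have close copies, so reads of 50 bases may have been shared between them.

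The promoters of Gbp2, Igtp and Irgm2 are shown because these genes, with Ido1, had the 4 largest log2 fold changes. They are RefSeq windows of GRCm38.p6, given as the 160 bases before the transcription start, 5′ to 3′ on the strand of the gene. Capitals mark each match to the ISRE core GAAANNGAAA (or TTTCNNTTTC on the other strand) and to GAS, TTCNNNGAA, which reads the same on both strands.
Gbp2 (chr3:142620503-142620662, plus strand): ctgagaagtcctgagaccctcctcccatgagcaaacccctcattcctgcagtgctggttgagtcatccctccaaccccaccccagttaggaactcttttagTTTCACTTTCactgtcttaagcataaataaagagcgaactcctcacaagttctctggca
Igtp (chr11:58199396-58199555, plus strand): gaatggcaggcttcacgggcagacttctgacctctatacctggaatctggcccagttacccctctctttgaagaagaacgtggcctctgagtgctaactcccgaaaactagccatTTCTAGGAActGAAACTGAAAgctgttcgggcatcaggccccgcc
Irgm2 (chr11:58214817-58214976, plus strand): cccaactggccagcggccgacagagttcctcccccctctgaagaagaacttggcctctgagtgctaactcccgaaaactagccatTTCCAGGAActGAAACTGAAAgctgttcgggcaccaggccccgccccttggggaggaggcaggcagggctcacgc
Gbp2 had an ISRE core that starts 59 bases before the transcription start, and no GAS match. Igtp had a GAS match 45 bases and an ISRE core 34 bases before the start, and Irgm2 had them 75 and 64 bases before it. The motifs start 11 bases apart in both genes. When the windows were aligned on the GAS match, 107 of 130 bases were identical.

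Over the full windows, from 250 bases before to 50 bases after the start, an ISRE core was found in 19 of the 32 placed members with a window (59.4%), against 3.99% of 27025 mouse genes. GAS was found in 10 of 32 (31.2%), against 9.55% of genes, and both were found in 6 (18.8%), against 0.614% of genes. By type, 6 of 9 members of the IFN-gamma type and 12 of 21 of the ISGF3 type had an ISRE core, and 4 of 9 and 5 of 21 had GAS. Among the 7 members without overlap between KO and WT that have a window, 4 had an ISRE core and 2 had GAS. Interferon response genes are known for these motifs, and a match is no evidence that a factor was bound here. The motifs share bases in Bst2, and each is counted there.

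**Figure D3:**
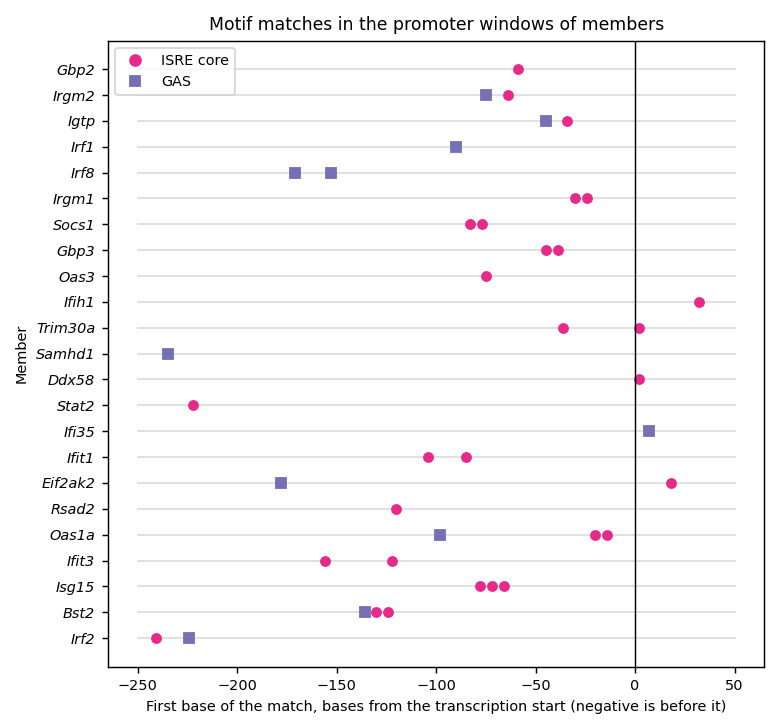
The position of each ISRE core and GAS match is plotted against the transcription start for the 23 placed members with a match, sorted by type and fold change, and 9 further members with a window had no match. In Igtp and Irgm2 a GAS match stands 11 bases before the ISRE core, and Isg15 has 3 ISRE cores in a row.

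The IFIT proteins bind viral RNA, and the OAS proteins make the second messenger that activates RNase L. Of the 5 tested genes of these families 3 had a log2 fold change above 0, beside 42.3% of all tested rows, and all 5 overlapped between KO and WT mice. Oas1a, the most abundant, had 28.6, 33.5 and 20.4 FPKM in KO and 21.2, 23.2 and 41.4 FPKM in WT mice. W90S was highest and K86S lowest, and the log2 fold change was -0.02 ± 0.30, which was above 0 when FPKM was rescaled between libraries. Ifit1 had 19.1, 25.3 and 18.5 FPKM and 16.8, 13.1 and 32.8 FPKM, with a log2 fold change of 0.09 ± 0.33. For Ifit3 the values were 7.56, 8.31 and 4.74 FPKM and 4.57, 5.38 and 13.6 FPKM, and the log2 fold change was -0.06 ± 0.39, which also was above 0 after rescaling. W90S was highest for both genes. The other WT libraries were below all KO libraries for Ifit1, and W89S was above K86S for Ifit3. Oasl2 had 22.9, 16.5 and 14.5 FPKM and 10.7, 8.99 and 20.4 FPKM, with W90S among the KO libraries and a log2 fold change of 0.46 ± 0.32, and Oas3 was at 0.50 ± 0.27. Without W83S Oas3 was at 0.28, and without W90S Oasl2 was at 0.79. Ifit1, Ifit3 and Oas1a have close copies in the genome between which reads may have been split.

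The 5 sensors of viral nucleic acid all had a log2 fold change above 0, though Dhx58 and Eif2ak2 by less than their SE. Of the 5, 1 had no overlap. Over all tested rows 42.3% were above 0 and 5.90% had all KO libraries above the WT libraries. Zbp1, a sensor of Z-form nucleic acid that can trigger necroptosis, had 12.5, 23.7 and 9.46 FPKM in the KO libraries and 8.02, 4.71 and 10.4 FPKM in the WT libraries. Its level was highest in K82S and lowest in W89S, with W90S above K86S, and the log2 fold change was 0.86 ± 0.38, or 0.51 without K82S. Ifih1 (MDA5), which senses long double-stranded RNA, had 11.8, 10.2 and 10.7 FPKM and 7.07, 7.66 and 8.36 FPKM. The KO libraries all lay above the WT libraries, at a log2 fold change of 0.45 ± 0.13 and a ratio of means of 1.41. Ddx58 (RIG-I), which senses RNA ends with a triphosphate, had 10, 8.19 and 8.15 FPKM and 5.75, 6.31 and 10.3 FPKM, where W90S was the highest library, and a log2 fold change of 0.25 ± 0.22, or 0.10 without W83S and 0.47 without W90S. Dhx58 (LGP2), which regulates both, and Eif2ak2 (PKR), which halts translation, were also highest in W90S, with log2 fold changes of 0.14 ± 0.28 and 0.04 ± 0.15.

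ISG15 is a ubiquitin-like protein that is linked to other proteins after infection, and Usp18 removes it and also blocks the type I receptor. Isg15 had 54.9, 53.2 and 38.3 FPKM in the KO libraries and 41.4, 40.9 and 77.8 FPKM in the WT libraries. W90S was highest, and the other WT libraries lay above K86S and below K79S and K82S. The log2 fold change was -0.08 ± 0.30, with a 95% interval of -0.79 to 0.63, and it was just above 0 after rescaling. Ubd (FAT10), a ubiquitin-like protein induced by interferon-gamma and tumour necrosis factor, had 27.7, 54.7 and 38.7 FPKM and 24.1, 7.95 and 36.2 FPKM. The groups overlapped although W89S was far below the other libraries, and the log2 fold change was 0.97 ± 0.54. Trim25, the ligase that activates RIG-I, had 19.4, 28.2 and 33.2 FPKM and 23.3, 31.0 and 24.2 FPKM, with K79S lowest and a log2 fold change of 0.02 ± 0.23. Usp18 was at 0.10 ± 0.27, and Trim30a, an inhibitor of NF-kappaB signalling with close copies beside it, at 0.30 ± 0.24, or 0.53 without W90S.

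The promoters of Isg15, Ifit1 and Ifit3 are given for comparison with those of Gbp2, Igtp and Irgm2, since these well-known targets of ISGF3 were highest in W90S. Sequence, build and capitals are as above.
Isg15 (chr4:156200819-156200978, minus strand): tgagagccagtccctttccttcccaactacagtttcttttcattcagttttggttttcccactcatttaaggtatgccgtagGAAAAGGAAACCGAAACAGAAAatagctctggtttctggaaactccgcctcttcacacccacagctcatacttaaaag
Ifit1 (chr19:34640729-34640888, plus strand): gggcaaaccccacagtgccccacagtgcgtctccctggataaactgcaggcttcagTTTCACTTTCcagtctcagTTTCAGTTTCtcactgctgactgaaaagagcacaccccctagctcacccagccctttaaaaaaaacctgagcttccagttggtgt
Ifit3 (chr19:34583369-34583528, plus strand): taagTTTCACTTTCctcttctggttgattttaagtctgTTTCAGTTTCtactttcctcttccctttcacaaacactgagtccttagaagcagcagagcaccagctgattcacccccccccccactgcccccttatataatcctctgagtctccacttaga
Isg15 had 3 overlapping ISRE cores, which start 78, 72 and 66 bases before the transcription start. Ifit1 had ISRE cores 104 and 85 bases and Ifit3 156 and 122 bases before it, and none of these 3 windows held GAS. GAS was found in other members of the ISGF3 type that were highest in W90S, namely Oas1a, Bst2 and Eif2ak2. Gbp2 held none, so GAS did not separate the members by their highest library.

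The interferon-induced PARP proteins, which add ADP-ribose to other proteins, and Dtx3l, the ubiquitin ligase that works with Parp9, all had a log2 fold change above 0. In each of them W83S and W89S were below the 3 KO libraries. Over all tested rows 42.3% were above 0, and without W90S 9.56% had the other WT libraries below the KO libraries. Dtx3l had 15.3, 17.3 and 13.8 FPKM in the KO libraries and 9.11, 8.38 and 11.1 FPKM in the WT libraries. No library overlapped, and the log2 fold change was 0.65 ± 0.16. Parp12, which restrains the replication of RNA viruses, had 45.5, 44.3 and 30.1 FPKM and 22.1, 29.9 and 29.3 FPKM, where K86S was only just above W89S, and a log2 fold change of 0.53 ± 0.22. Parp9 had 17.1, 24.0 and 14.2 FPKM and 13.2, 12.6 and 16.9 FPKM, and Parp14, which regulates signalling by STAT proteins, had 15.9, 14.0 and 14.2 FPKM and 10.9, 6.11 and 14.1 FPKM. In both genes W90S reached into the KO range, and the log2 fold changes were 0.33 ± 0.22 and 0.53 ± 0.28. Without K82S that of Parp9 was 0.13. Parp9 and Dtx3l lie on opposite strands with overlapping ends, from chr16:35938470-35972605 and chr16:35926511-35939151, and the handling of strand is not given in the sources used here.

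Among other antiviral effectors, Ifi35 had 69.1, 51.4 and 62.9 FPKM and 49.9, 47.5 and 68.6 FPKM, with a log2 fold change of 0.15 ± 0.21. Bst2 (tetherin), which holds budding virus at the cell surface, had 16.7, 21.1 and 15 FPKM and 16.0, 16.0 and 31.8 FPKM. W90S was the highest library of both WT and KO mice for Bst2, which had the lowest log2 fold change of all members, -0.20 ± 0.29, with a 95% interval of -0.90 to 0.50. It was -0.33 without K82S, -0.36 without W83S and 0.11 without W90S. Samhd1, which depletes the nucleotides that retroviruses need, had 12.4, 9.36 and 13.7 FPKM and 8.67, 7.55 and 12.6 FPKM, with overlap and a log2 fold change of 0.29 ± 0.23, or 0.43 without K82S and 0.48 without W90S. Rsad2 (viperin) was low, with 1.65, 2.30 and 1.69 FPKM and 1.63, 1.02 and 3.47 FPKM. W89S was lowest and W90S highest, and the log2 fold change was -0.004 ± 0.30. Xaf1, which promotes cell death, was at 0.12 ± 0.19.

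Ido1, the enzyme that starts the breakdown of tryptophan to kynurenine and a marker of the answer of epithelium to interferon-gamma, had 35.4, 59.6 and 39.6 FPKM in the KO libraries and 22.0, 19.8 and 12.1 FPKM in the WT libraries. Each KO library was above each WT library by a clear margin, and W90S was lowest. The mean was 44.9 ± 12.9 FPKM in KO and 18.0 ± 5.18 FPKM in WT mice (SD, n = 3), with a ratio of 2.50 and a log2 fold change of 1.28 ± 0.29 (95% interval 0.59 to 1.97). It was 1.06 without K82S, 1.44 without W83S and 1.03 without W90S. Socs1, which shuts off JAK kinases in response to the signal, had 4.99, 5.07 and 2.31 FPKM and 1.39, 3.61 and 3.53 FPKM, with K86S and W83S low and a log2 fold change of 0.42 ± 0.35, or 0.27 without K82S and 0.11 without W83S.

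**Figure D4:**
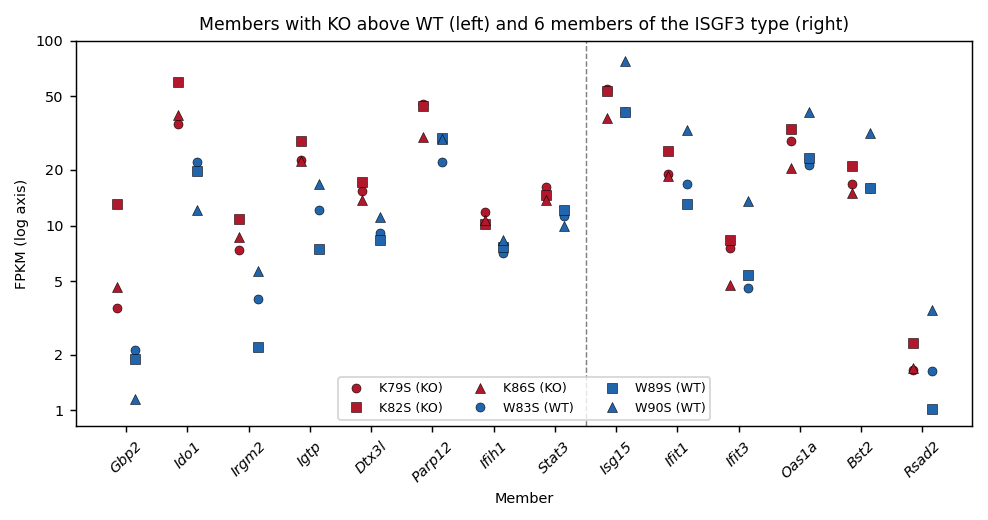
FPKM is plotted on a log axis for each library of 2 chosen sets of members, with red for KO and blue for WT. On the left are the 8 members whose KO values all lay above the WT values. On the right are 6 of the 13 members of the ISGF3 type that were highest in W90S, out of 26 placed. By this choice no blue point on the left reaches the lowest red point of the same gene. Likewise by choice, the blue triangle, W90S, is the highest point of each gene on the right.

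Of 9 tested receptors and kinases that sense interferon, 1, Jak1, had all KO libraries above the WT libraries, beside 5.90% of all tested rows. None of 9 interferon ligands, among them Ifng and Ifnb1, was placed, so the ligands were not analysed here. Of the 9 receptors and kinases, 7 had a log2 fold change above 0, beside 42.3% of all tested rows. Their median was 0.095, and none passed the threshold. The kinase Jak1 had 14.8, 16.0 and 16.1 FPKM and 12.6, 12.8 and 12.6 FPKM and a log2 fold change of 0.28 ± 0.12. The log2 fold change was 0.27 for Jak2 and 0.15 for Tyk2. For the type I receptor it was -0.12 (Ifnar1) and 0.04 (Ifnar2), for the interferon-gamma receptor 0.01 (Ifngr1) and 0.10 (Ifngr2), and for the type III receptor 0.17 (Ifnlr1) and -0.10 (Il10rb).

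None of the genes that lead to the production of interferon, or that restrain its signal, passed the threshold. Of 9 tested genes of the induction pathway 6 were above 0, beside 42.3% of all tested rows, with a median of 0.15 and no gene without overlap. They ranged from -0.505 (Traf3) to 0.33 (Tlr3), and the most abundant, Ticam1 and Mavs, were at 0.15 and -0.09. Of 8 inhibitors, 5 were above 0, beside 42.3% of all tested rows, with a median of 0.13. Pias1 (0.27) and Usp25 (0.27) had no overlap, with the KO libraries above, as in 5.90% of all tested rows. Socs3, which answers mainly to STAT3, had 52.9, 33.6 and 24.9 FPKM and 21.2, 29.3 and 19.0 FPKM, with overlap and a log2 fold change of 0.61 ± 0.30. The others were Cish at -0.08, Ptpn2 at -0.25, Ptpn6 at 0.17, Ptpn11 at -0.01 and Pias4 at 0.09. A further 40 interferon-induced genes outside the 49 were tested, and 27 were above 0 with a median of 0.16, beside 42.3% of all tested rows above 0. The KO libraries lay above the WT libraries in 7 of them (Ifi47, Gbp2b, Trim12c, Lgals3bp, Ccl5, Serping1 and Sp100) and below in 1 (Ifi27), beside 5.90% and 11.3% of all tested rows. Ifi47, an IRG, had 4.06, 9.30 and 3.40 FPKM and 2.11, 2.21 and 3.02 FPKM. The most abundant of these genes, Plac8 and Ifi27l2b, were at -0.43 and 0.17.

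Antigen presentation is also induced by interferon, above all MHC class II by interferon-gamma through Ciita. Of 14 tested MHC class I genes 12 were above 0, with a median log2 fold change of 0.44, and 7 had no overlap, while all 8 tested MHC class II genes were above 0, with a median of 1.29, and 6 had no overlap (5.90% of all tested rows). H2-K1, a heavy chain of MHC class I, had 740, 692 and 645 FPKM and 483, 411 and 537 FPKM, and B2m, its light chain, was at 0.20 ± 0.21 with overlap. Cd74, the invariant chain of MHC class II, had 1667, 1614 and 1511 FPKM and 544, 734 and 619 FPKM, at a log2 fold change of 1.34 ± 0.19, and H2-Ab1 was at 1.29 ± 0.19. Without K82S, 5 of the 8 MHC class II genes passed the threshold with a higher level in KO, as did 0.400% of all rows, and no MHC class I gene did. The medians of the interferon response genes and of MHC class I were lower than that of MHC class II, and the differences between the 3 lists were not tested.

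Most tested markers of T cells and NK cells had all KO libraries above the WT libraries, while Klrd1 overlapped. Of 12 listed markers 9 were tested, all were above 0, with a median log2 fold change of 0.80, and 8 had no overlap (5.90% of all tested rows). Their sums of 188, 267 and 187 FPKM in KO mice did not overlap with the 140, 84.9 and 112 FPKM of WT mice. K82S was highest and W89S lowest, as also for the sums of the IFN-gamma type and of MHC class I. The most abundant were granzymes, Gzma with 98.8, 147 and 99.8 FPKM in KO and 76.2, 46.5 and 63.6 FPKM in WT mice and Gzmb with 34.3, 39.3 and 35.5 FPKM and 22.0, 11.7 and 18.2 FPKM. General leukocyte markers, led by Coro1a and Laptm5, had sums of 25.0, 71.7 and 25.7 FPKM in KO mice and 20.7, 35.0 and 42.7 FPKM in WT mice, with 4 of 4 tested and overlap in each. Of 7 macrophage and dendritic cell markers 5 were above 0, with a median of 0.21, and Csf1r (0.49) and Itgax (0.38) had no overlap. Their sums were 65.0 to 199 FPKM in KO and 88.4 to 244 FPKM in WT libraries, to which Lyz2 gave 17.5, 122 and 27.0 FPKM and 41.0, 184 and 123 FPKM, while C1qa was at 0.21. Lyz2 was at -1.3, and its libraries ranked in the same order as those of the Paneth cell marker Lyz1. Lyz1 had 102, 816 and 185 FPKM in KO and 361, 1905 and 1115 FPKM in WT mice. The sums therefore do not stand for the other markers of this list. Paneth cell markers, led by Defa24 and Defa30, were lower in most KO libraries (682, 4764 and 1281 FPKM against 2658, 9155 and 7051 FPKM). Stromal and smooth muscle markers, led by Acta2 and Tagln, summed to 14.9 to 39.4 FPKM. None of the placed markers of these cell types was listed at 0 in any library. In bulk mucosa more cells of a type and more RNA per cell cannot be told apart, and the part of these cells in the levels of the interferon response genes was not tested.

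**Figure D5:**
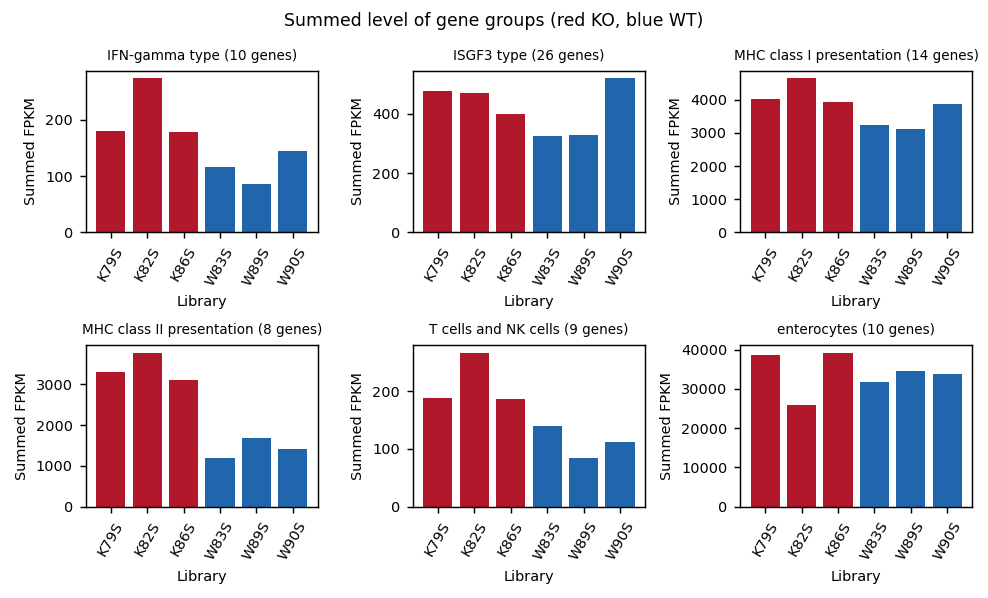
Bars give summed FPKM per library for the members of the IFN-gamma type (10 genes), those of the ISGF3 type (26 genes), MHC class I (14), MHC class II (8), T cell and NK cell markers (9) and enterocyte markers (10), with red for KO and blue for WT and each axis starting at 0. The IFN-gamma type, MHC class I, MHC class II and the T cell and NK cell markers show no overlap of KO and WT bars, while in the ISGF3 type W90S has the highest bar.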

How the data were processed

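RNA of the middle small intestinal mucosa of 3 KO and 3 WT mice was sequenced as single-end reads on an Illumina HiSeq, and the authors trimmed the reads, mapped them to mm10 with HISAT2 and took the level of each gene from StringTie. FPKM was the unit that the authors deposited. It holds no read counts, and the mapped reads per library that the study lists were not used here, so no counting error is given and the precision rests on 3 mice per genotype. The gene annotation, the treatment of strand and whether an edgeR normalization was applied to these values are not given in the sources used here. All 6 columns were mapped to samples by name, and 0 columns were left unmapped.

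Identifiers were ranked by the K79S value beside them and rows by W83S, and each identifier was moved to its row by 12 fixed rank offsets that cover ranks up to 12482. Of 22700 identifiers 12402 were settled, and the others were dropped. Rows with FPKM of at least 1 in 2 or more libraries were kept. A linear model of log2(FPKM + 1) was made in limma 3.58.1, R 4.3.3 (trend of variance on the mean, no covariate, two-sided, Benjamini-Hochberg adjustment over all rows kept), and fold changes on this scale understate the change of weakly expressed genes. Counts of libraries, sums and exact permutation tests used Python 3.11.15. On simulated data with 13089 rows and each row's observed spread, 52 of 200 rows changed by 1 and 164 of 200 changed by 2 on the log2 scale were found. In these runs 5 and 10 unchanged rows were called as well. The changed rows were drawn from those with a mean log2(FPKM + 1) above 1. Errors were normal and independent, so shifts that many rows of a library share were not simulated, and the shares found may differ in the real data. The limma p-values set the difference between the genotypes against the spread between these mice, which limma moderates by the trend over all rows.

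Promoter windows were RefSeq windows of GRCm38.p6 and were matched to members by symbol. A window was at hand for 37 of the 49 members. Alternatives covered pseudocounts, filters, scalings, weights of libraries, rank offsets and left-out libraries. Values in every library are given for the 3 members of each role with the highest mean FPKM, those without overlap and the 5 with the lowest p in each direction. Of each further list the 2 most abundant genes, and all receptors and inhibitors, are named. The members, lists and tests were chosen with earlier results of these data known. Genes of the further lists without a settled row were not analysed here, most others enter as counts only, and 1 gene was left out of these lists and is not reported here.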

Additional observations from a re-analysis of the deposited data

How the results depend on the processing

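No member passed the threshold in any of the alternatives. Apart from those that shift the rank offsets, the lowest adjusted p-value was 0.0523 (limma, Benjamini-Hochberg), the median log2 fold change of the members stayed between 0.22 and 0.48, and 25 of the 38 members kept their direction throughout. Over all rows, 0 passed with a pseudocount of 0.1 or 0.01, 2 passed with weighted libraries and 1111 without K82S and W83S together, an alternative chosen after seeing the data. With 1 library left out in turn, 0 to 1184 rows passed and 8 to 30 members had all KO libraries above the WT libraries. The lowest member count came without W83S, 15 without K86S and the highest without W90S. The cause was not tested.

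A shift of every rank offset by 1 puts each member on the row of another gene, so values of single members do not exist there. With plus 1 the median was -0.26, with 3 rows above and 10 below, and with minus 1 it was -0.18, with 2 above and 5 below.

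The direction of 13 members depended on the setting. With 1 library left out in turn the log2 fold change ranged from -0.004 to 0.26 for Gbp3, -0.17 to 0.46 for Ifit1, -0.32 to 0.37 for Ifit3, -0.20 to 0.27 for Oas1a, -0.057 to 0.47 for Dhx58, -0.035 to 0.15 for Eif2ak2, -0.23 to 0.22 for Isg15, -0.15 to 0.40 for Usp18, -0.14 to 0.23 for Trim25, -0.26 to 0.31 for Rsad2 and -0.36 to 0.11 for Bst2. With weighted libraries it was -0.011 for Gbp3, -0.14 for Ifit1, -0.032 for Eif2ak2, -0.002 for Usp18 and -0.033 for Trim25. Without K82S and W83S it was -0.041 for Gbp3, -0.14 for Ifit1, -0.053 for Eif2ak2, -0.10 for Trim25, -0.050 for Xaf1 and -0.038 for Socs1. Scaling by median of ratios gave 0.017 for Ifit3, 0.062 for Oas1a, 0.006 for Isg15 and 0.051 for Rsad2, and scaling to an equal upper quartile gave 0.015, 0.061, 0.005 and 0.048 for the same genes. Rsad2 was at 0.041 with a pseudocount of 0.1 and at 0.051 with 0.01.

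No paired analysis was possible because the labels do not say which KO and WT mice form the matched pairs that the study mentions. Small differences of weakly expressed members such as Rsad2 and Gbp3 were not weighed against counting error, since read counts were not used here.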
